A study of Mus musculus with 4 samples.

Results

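Transcript levels of 10 genes that attach meiotic chromosomes to the nuclear envelope were examined in sorted male germ cells of control mice and of mice labelled *Zfp541* KO. The genes were picked by their symbols, with earlier results of these data known: the SUN proteins *Sun1*, *Sun2*, *Sun3* and *Sun5*, the nesprins *Syne1* and *Syne2*, the telomere-bound kinase *Cdk2* with its activator *Spdya*, and the lamins *Lmna* and *Lmnb1*. All 10 were found among the 24411 rows of each library. RNA had been sequenced from GFP-positive testicular cells of mice at postnatal day 18, in 2 libraries from control *Zfp541*+/− males and 2 labelled *Zfp541* KO, called the KO-labelled libraries below. The strain was given as C57BL/6 and CBA mixed, and all 4 males carried the *Rec8-3xFLAG-HA-p2A-GFP* allele (named *Rec8-3FH-GFP* KI in short), in which GFP is made from the locus of the meiotic cohesin *Rec8*. This knock-in was homozygous in both KO males and in 1 control and heterozygous in the other control, and the labels do not say which control is which. The KO allele lacks the first to the thirteenth exon of *Zfp541* and was made by CRISPR/Cas9 in fertilized eggs. Each library came from 1 testis, so p-values measure the spread between libraries from single testes. In the controls that spread also holds the difference in knock-in zygosity, which cannot be told apart from it.

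During meiotic prophase the chromosome ends are fixed to the inner face of the nuclear envelope and are dragged along it, which helps homologous chromosomes to find each other. SUN proteins cross the inner nuclear membrane and KASH-domain proteins, the nesprins and KASH5, cross the outer one. Together they form the LINC complex, which connects the telomeres inside to dynein motors on microtubules outside. Speedy A, the product of *Spdya*, brings CDK2 to the telomeres, the TERB1-TERB2-MAJIN complex joins telomeric DNA to the membrane, and the lamina beneath the membrane is built in spermatocytes in part from lamin C2, a short meiotic product of *Lmna*.

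*Zfp541* itself was at 112 and 72.2 TPM in control libraries 1 and 2 and at 136 and 151 TPM in the KO-labelled libraries 1 and 2 (TPM is a transcript abundance corrected for length that sums to the same total in every library). The targeted gene was thus not lower under the KO label (log2 difference 0.67, standard error 0.28, adjusted p = 0.371 from limma). The gene-level TPM does not separate the deleted exons from the rest, so the genotype of a library, and every direction below, rests on its label. *Rec8*, whose locus drives the sorting marker, was at 7.05 and 27.9 TPM in the control libraries and 27.7 and 19.4 TPM in the KO-labelled libraries. Over 14512 genes the controls lay 153 log2 units apart (Euclidean distance), the KO-labelled libraries 49.2, and a control and a KO-labelled library 111 to 133. Markers of germ cells were present in every library. The histone gene *Hist1h1t*, whose protein H1t marks later pachytene, stood at 1.0 to 2.55 TPM. Other pachytene markers ranged widely, with *Ldhc* at 768 to 3659 TPM, *Ybx2* at 1004 to 2137 TPM and *Nme8* at 0.27 to 25.4 TPM. The paper reported H1t protein in a large share of the sorted cells, so the low *Hist1h1t* value does not show that later pachytene cells were lacking. Markers of other cells differed between the controls: 5 macrophage markers summed to 1576 TPM in control 1, 16.8 TPM in control 2 and 1298 and 934 TPM in the KO-labelled libraries, and 6 Leydig cell markers to 2910, 18.0, 331 and 504 TPM in the same order. Markers of myoid and stromal cells (7 genes) summed to 25.2 to 157 TPM, of red blood cells (5 genes) to 20.3 to 280 TPM, of endothelium (3 genes) to 1.23 to 8.80 TPM and of round spermatids (7 genes) to 12.7 to 37.1 TPM.

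The 10 genes do not share 1 type of start region. The 250 bases upstream of an annotated start are shown for *Sun1* and *Lmna*, which were higher in the KO-labelled libraries, for *Sun3*, which was not, and for *Sun5*, which was hardly detected. For *Sun1* and *Sun3* the most upstream window is shown, and a further downstream window of each is described below. They were taken from RefSeq (GRCm38.p6, the build UCSC calls mm10), are written 5′ to 3′ on the strand of the gene, and carry the GC box (GGGCGG, on either strand, thus also CCGCCC) in capitals. For *Lmna* the first line is the start of the longest coding transcript, with 12 exons, and the second that of a transcript with 10 exons that begins 10040 bases downstream, within intron 1 of the longest one. A short *Lmna* transcript with 3 exons is annotated from a start further upstream, which has no window here.
*Sun1*, chr5:139200387-139200636, plus strand: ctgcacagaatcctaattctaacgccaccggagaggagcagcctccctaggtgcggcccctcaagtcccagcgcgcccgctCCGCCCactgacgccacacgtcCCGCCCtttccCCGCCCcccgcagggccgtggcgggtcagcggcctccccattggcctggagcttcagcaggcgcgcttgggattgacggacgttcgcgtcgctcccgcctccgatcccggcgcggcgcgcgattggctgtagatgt
*Lmna*, start of the longest transcript, chr3:88503353-88503602, minus strand: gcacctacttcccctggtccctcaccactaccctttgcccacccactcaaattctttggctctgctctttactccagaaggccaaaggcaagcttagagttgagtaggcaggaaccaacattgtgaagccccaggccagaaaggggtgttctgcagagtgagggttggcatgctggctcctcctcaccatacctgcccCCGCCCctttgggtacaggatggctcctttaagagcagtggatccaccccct
*Lmna*, internal start, chr3:88493313-88493562, minus strand: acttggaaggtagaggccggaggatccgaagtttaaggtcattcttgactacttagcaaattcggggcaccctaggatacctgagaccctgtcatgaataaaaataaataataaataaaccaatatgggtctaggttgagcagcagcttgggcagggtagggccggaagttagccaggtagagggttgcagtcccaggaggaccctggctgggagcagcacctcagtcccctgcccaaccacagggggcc
*Sun3*, chr11:9048992-9049241, minus strand: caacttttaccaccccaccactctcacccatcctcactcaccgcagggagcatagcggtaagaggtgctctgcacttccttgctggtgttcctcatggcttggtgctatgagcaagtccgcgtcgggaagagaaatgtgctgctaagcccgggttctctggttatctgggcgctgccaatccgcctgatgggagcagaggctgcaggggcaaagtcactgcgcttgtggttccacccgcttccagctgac
*Sun5*, chr2:153871085-153871334, minus strand: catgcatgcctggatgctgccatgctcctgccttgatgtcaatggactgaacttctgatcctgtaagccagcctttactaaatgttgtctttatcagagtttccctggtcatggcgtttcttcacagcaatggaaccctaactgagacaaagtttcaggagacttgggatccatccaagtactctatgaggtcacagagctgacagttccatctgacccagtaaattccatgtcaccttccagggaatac

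The *Sun1* window shown was 70.0% G and C, with 30 CpG and 3 GC boxes, whereas the *Sun5* window was 46.8% G and C, with 1 CpG and no GC box. The downstream *Sun1* window (chr5:139214908-139215157) was 43.6% G and C, with 1 CpG and no GC box, and so nearer to that of *Sun5*. Windows of *Sun2*, *Spdya*, *Syne2* and *Cdk2* resembled the *Sun1* window shown, with 63.2% to 70.8% G and C, 21 to 33 CpG and 3 to 5 GC boxes each. The *Sun3* window shown held 10 CpG and no GC box, and the downstream *Sun3* window 3 CpG and no GC box. The most upstream of the *Syne1* windows held 7 CpG and 2 GC boxes. Of the *Lmna* windows, that of the longest transcript had 1 CpG and 1 GC box and that of the internal start 4 CpG and none. A GC box was found in 32.7% of all 32851 windows of the same length, whose median was 52.4% G and C and 6 CpG. A CCAAT box (CCAAT, either strand, in 33.8% of all windows) was found 2 times at *Sun2* and in the *Sun1* window shown. It was found once at *Spdya*, *Cdk2*, the internal *Lmna* start, the *Sun3* window shown and the downstream *Sun1* window. None was found at *Sun5* or in the downstream *Sun3* window. The cyclic AMP response element TGACGTCA, on either strand, was in 1.5% of all windows and in none of those named here. A window was found for 9 of the 10 genes, all but *Lmnb1*.

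The 10 genes covered a wide range of levels, which can be set side by side because TPM is corrected for length. *Spdya* (mean 174 TPM over the 4 libraries, range 118 to 199), *Sun1* (147, 118 to 173) and *Cdk2* (138, 129 to 146) were the most abundant, and their ranges overlapped. The lamins followed, *Lmna* with a mean of 76.3 TPM (52.4 to 97.0) and *Lmnb1* with 72.2 TPM (48.3 to 91.4), both below every library of *Cdk2* and overlapping each other. *Sun2* (29.2 TPM, 19.0 to 36.8) lay below every library of *Lmnb1*. *Sun3* (10.8 TPM, 5.36 to 23.2) overlapped both *Sun2* above it and *Syne2* below it (8.21 TPM, 3.22 to 10.6). *Syne1* (2.16 TPM, 1.97 to 2.46) and *Sun5* (0.133 TPM, 0 to 0.33) were the lowest and overlapped no neighbour. The abundant members were thus the SUN protein, kinase and kinase activator of telomere attachment, while the nesprins of somatic cells and the spermatid protein *Sun5* were scarce.

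**Figure D1:**
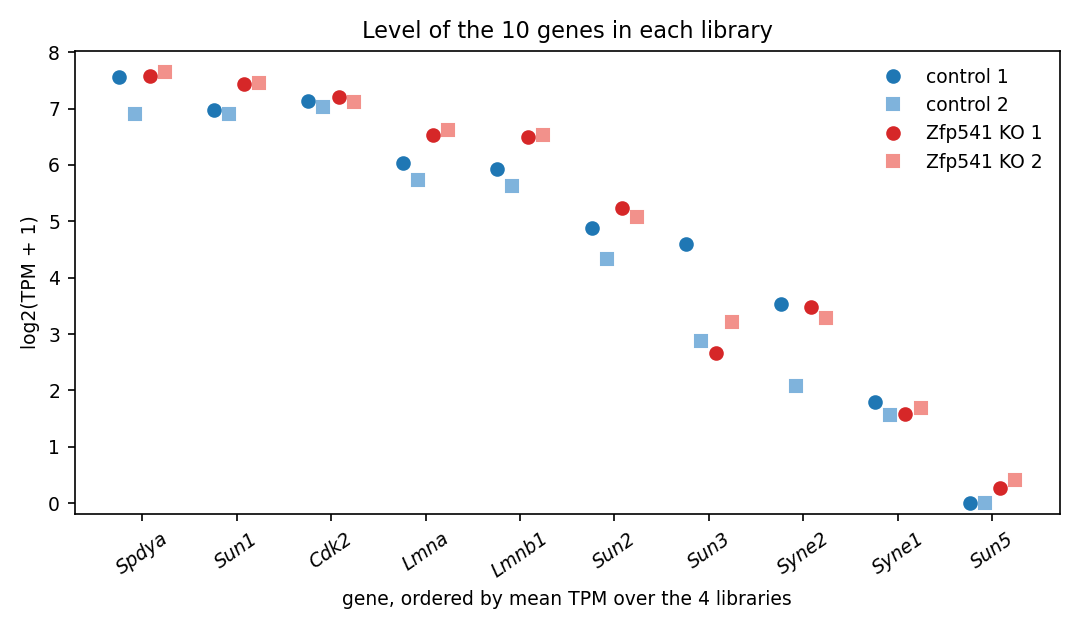
Level of each of the 10 genes in each library, as log2(TPM + 1), ordered by mean TPM; circles and squares are libraries 1 and 2, blue for control and red for *Zfp541* KO. The KO-labelled libraries lie above both controls for *Spdya*, *Sun1*, *Lmna*, *Lmnb1*, *Sun2* and *Sun5*, and control 1 stands high for *Sun3* and control 2 low for *Syne2*.

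To ask whether these genes differed with the *Zfp541* label, the KO-labelled libraries were compared with the controls on the log2(TPM + 1) scale, which understates the change of low genes. 9 of the 10 genes had a mean of at least 1 TPM and were tested, and *Sun5* did not. No member passed an FDR of 0.05 in limma, where 0% of all 14512 genes passed and the smallest adjusted p was 0.310. At an unadjusted p under 0.05, 3 members were higher (*Sun1*, *Lmna* and *Lmnb1*), beside 10.7% of all genes, and none was lower, beside 3.73%. Both KO-labelled libraries were above both controls for 5 of the 9 members (*Sun1*, *Sun2*, *Spdya*, *Lmna* and *Lmnb1*), beside 38.6% of all genes, and below both for none, beside 12.1%. The median log2 difference of the 9 was 0.50, against 0.28 over all genes tested, and 6 of them were above that general median. The general median depends on the scaling: with median-ratio scaling it was -0.015 and the median of the members 0.17, and the unadjusted p of every member was then 0.0855 or more. An exact permutation test of a single gene cannot go below p = 0.333 with 2 libraries against 2.

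**Figure D2:**
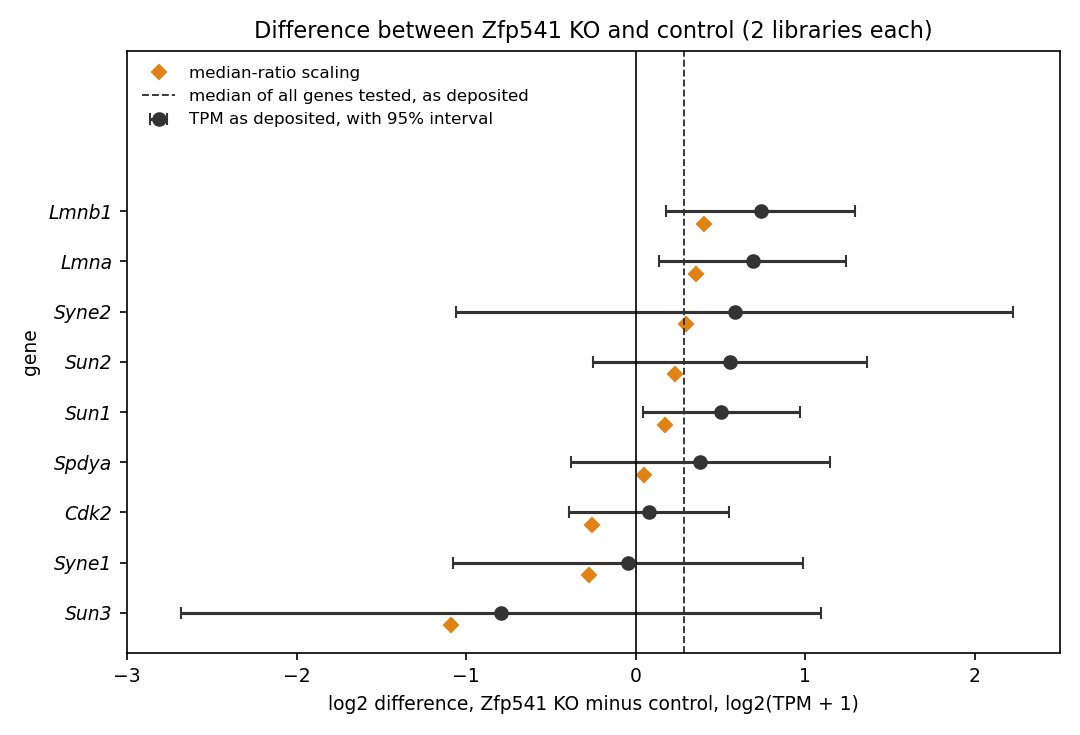
Difference between *Zfp541* KO and control in log2(TPM + 1) for the 9 genes tested, with 95% intervals from limma (black, TPM as deposited), and the same difference after median-ratio scaling (orange); 2 libraries a group. The intervals of *Lmnb1*, *Lmna* and *Sun1* lie above 0, those of the other 6 genes include 0, and the dashed line is the median of all genes tested, 0.28.

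Among the SUN genes, *Sun1* was the most even within groups. SUN1 is the inner membrane protein on which meiotic telomere attachment depends, and its gene spans chr5:139200637-139249840 (mm10) with 23 exons in the longest coding transcript. *Sun1* was at 125 and 118 TPM in control libraries 1 and 2 and at 173 TPM in both KO-labelled libraries, so the groups were well apart compared with the spread inside either. The log2 difference was 0.50 (standard error 0.17, 95% interval 0.043 to 0.97), with an unadjusted p of 0.0383 and an adjusted p of 0.328 from limma. It was 0.44 after quantile normalization and 0.17 after median-ratio scaling, and the groups did not overlap under either. Without control 1 it was 0.55 and without control 2 it was 0.46. In those fits the spread came from the KO-labelled libraries alone, and the remaining control is assumed to vary like them. For single genes, only the estimates of such fits are therefore given.

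*Sun2*, the partner of SUN1 that also binds KASH proteins in many tissues, was at 28.4 and 19.0 TPM in the control libraries and 36.8 and 32.7 TPM in the KO-labelled libraries. The groups did not overlap, but control 1 lay closer to either KO-labelled library than to control 2. As control 2 had the lowest sums of macrophage and Leydig cell markers, their part in the *Sun2* value was not tested either. The log2 difference was 0.56 (standard error 0.30, adjusted p = 0.444 from limma), and it was 0.83 without control 1 and 0.28 without control 2. It was 0.23 under median-ratio and 0.27 under quantile scaling, with no overlap under either. *Sun1* made up 70.9% and 82.3% of the summed TPM of *Sun1*, *Sun2*, *Sun3* and *Sun5* in controls 1 and 2, and 80.3% and 80.8% in the KO-labelled libraries. The ratio of *Sun1* to *Sun2* was 4.41 and 6.20 in the control libraries and 4.69 and 5.30 in the KO-labelled libraries, which lie between the controls.

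*Sun3*, a SUN gene of the testis that serves in spermatids, had a difference of the opposite sign. It was at 23.2 and 6.34 TPM in control libraries 1 and 2 and at 5.36 and 8.26 TPM in the KO-labelled libraries, so that control 1 was high and control 2 lay between the KO-labelled libraries. The log2 difference was -0.80 (standard error 0.70, adjusted p = 0.612 from limma). It turned to 0.064 without control 1 and was -1.65 without control 2. Under median-ratio and quantile scaling it was -1.09 and -1.11, and both KO-labelled libraries were then below both controls. Control 1 was also the library with the highest sum of 9 pachytene markers, 6850 TPM against 3395 TPM in control 2 and 2188 and 3160 TPM in the KO-labelled libraries, and the part of this in the *Sun3* value was not tested. In pooled cells, fewer cells that express a gene and less RNA per cell cannot be told apart. *Sun5*, which joins the sperm head to the tail, was listed at 0 in both controls and at 0.2 and 0.33 TPM in the KO-labelled libraries, too low for a comparison. Of 7 round spermatid markers, 2 had a mean of at least 1 TPM, *Spaca1* and *Tssk6*. For both the KO-labelled libraries were above the controls (38.6% of all genes). *Spaca1* was at 7.34 and 13.9 TPM in the control libraries and 27.0 and 26.6 TPM in the KO-labelled ones. The other markers were at 1.48 TPM or less in every library and did not share a direction. *Prm1* and *Prm2* were highest in control 1, at 1.48 and 0.89 TPM. *Tnp1* was at 0 in both controls and at 0.62 and 1.02 TPM in the KO-labelled libraries. The part of these markers in the *Sun5* value was not tested.

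Both large nesprins were low. *Syne1* was at 2.46 and 1.97 TPM in the control libraries and 1.99 and 2.22 TPM in the KO-labelled libraries, with groups that overlapped and a log2 difference of -0.047 (standard error 0.38, adjusted p = 0.966 from limma, 95% interval -1.08 to 0.99). That sign turned without control 1 (0.063) and without KO 1 (0.0064). *Syne2*, whose protein anchors nuclei to the cytoskeleton, was at 10.6 and 3.22 TPM in the control libraries and 10.2 and 8.79 TPM in the KO-labelled libraries. Control 2 alone was low, so the log2 difference of 0.58 (standard error 0.61, adjusted p = 0.672 from limma) was 1.31 without control 1 and -0.15 without control 2. Control 2 was also the library with the lowest sums of macrophage and Leydig cell markers, and their part in the *Syne2* value was not tested. The ratio of *Syne2* to *Syne1* was 1.63 in control 2 and 3.96 to 5.13 in the other libraries.

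*Cdk2*, needed for telomeres to stay attached through prophase, was at 139 and 129 TPM in the control libraries and 146 and 137 TPM in the KO-labelled libraries. Its log2 difference was 0.079 (standard error 0.17, adjusted p = 0.850 from limma, 95% interval -0.39 to 0.55), and the sign turned to -0.26 under median-ratio and -0.0013 under quantile scaling. *Spdya* was at 187 and 118 TPM in the control libraries and 190 and 199 TPM in the KO-labelled libraries. The groups did not overlap, but control 1 lay close to the KO-labelled libraries and control 2 well below all 3. The log2 difference of *Spdya* was 0.38 (standard error 0.28, adjusted p = 0.557 from limma). It was 0.71 without control 1 and 0.052 without control 2, and with median-ratio scaling it was 0.047 and the groups overlapped. The ratio of *Spdya* to *Cdk2* was 1.35 in control 1 and 0.916 in control 2, and of the KO-labelled libraries the first lay between these values and the second above them, at 1.45.

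The lamins had the largest positive differences of the 9 members, with like profiles over the libraries. *Lmna*, which encodes lamins A and C and the meiotic lamin C2 and spans chr3:88480147-88509956 (mm10), was at 64.3 and 52.4 TPM in the control libraries and 91.5 and 97.0 TPM in the KO-labelled libraries. *Lmnb1*, which encodes the B-type lamin B1, was at 60.0 and 48.3 TPM in the control libraries and 89.2 and 91.4 TPM in the KO-labelled libraries. In both genes the groups were clearly apart and control 2 was the lowest library. Control 2 also had the lowest sums of macrophage and Leydig cell markers, and their part in the lamin values was not tested. The log2 difference was 0.69 for *Lmna* (standard error 0.20, unadjusted p = 0.0250, adjusted p = 0.319 from limma). For *Lmnb1* it was 0.74 (standard error 0.21, unadjusted p = 0.0207, adjusted p = 0.315 from limma). With median-ratio scaling the differences were 0.36 and 0.40, and neither gene's groups overlapped. Without control 1 they were 0.84 and 0.89, and without control 2 they were 0.54 and 0.58.

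The ratio of *Lmna* to *Lmnb1* held between 1.03 and 1.08 in all 4 libraries, the narrowest of the ratios computed. Their profiles over the libraries were also the closest of any pair of tested members, with a root mean square difference of 0.029 log2 units after centring. With 4 libraries close profiles are common: 672 genes lay within 0.1 log2 units of *Sun1*. Such genes were not counted for the lamins. The ratio of *Lmnb1* to the second B-type lamin, *Lmnb2*, was 5.91 and 4.26 in the control libraries and 5.96 and 6.25 in the KO-labelled libraries. TPM per gene does not separate lamin C2, made from the internal start shown above, from lamins A and C.

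Partner genes of the same machinery were taken from lists of 41 genes in 6 groups, all of them tested. None passed the FDR of 0.05, 8 were higher and none lower at an unadjusted p under 0.05 (10.7% and 3.73% of all genes), and for 24 both KO-labelled libraries were above both controls and for 3 below (38.6% and 12.1% of all genes). Among the meiotic LINC partners, *Kash5* (listed as *Ccdc155*), which connects SUN1 to dynein, was at 149 and 152 TPM in the control libraries and 183 and 209 TPM in the KO-labelled libraries, a log2 difference of 0.38 (adjusted p = 0.407 from limma). The groups of *Syne3*, *Syne4* and *Spag4*, which have roles outside meiotic prophase, overlapped. The ratio of *Sun1* to *Kash5* was 0.842 and 0.779 in the control libraries and 0.943 and 0.828 in the KO-labelled libraries, which overlap.

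For the complex that joins telomeres to the membrane, all 3 genes were above both controls in both KO-labelled libraries (38.6% of all genes). *Majin* (listed as *1700123I01Rik*), its membrane subunit, was at 56.9 and 62.6 TPM in the control libraries and 97.4 and 97.8 TPM in the KO-labelled libraries, a log2 difference of 0.70 (adjusted p = 0.311 from limma). *Terb2* (listed as *4933406J08Rik*) was at 22.1 and 31.4 TPM in the control libraries and 49.6 and 54.1 TPM in the KO-labelled libraries, a log2 difference of 0.95 (adjusted p = 0.315). *Terb1* (listed as *Ccdc79*) was at 55.9 and 30.0 TPM in the control libraries and 57.1 and 63.4 TPM in the KO-labelled libraries, so control 1 stood next to the KO-labelled libraries. The median of the complex was 0.70 and, with median-ratio scaling, 0.37.

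Shelterin, the protein cap of telomeres, was mixed. For 5 of its 7 genes both KO-labelled libraries were above both controls (38.6% of all genes), and for 1 below (12.1%). *Pot1a*, a single-strand binder, was at 12.1 and 16.3 TPM in the control libraries and 34.8 and 31.6 TPM in the KO-labelled libraries, a log2 difference of 1.18 (adjusted p = 0.310 from limma). *Terf1*, which binds double-stranded telomere repeats and contacts TERB1, was at 25.7 and 27.2 TPM in the control libraries and 52.3 and 44.3 TPM in the KO-labelled libraries (0.84, adjusted p = 0.315). *Acd*, the partner of POT1, was below both controls, at 60.6 and 69.4 TPM against 53.2 and 56.0 TPM (log2 difference -0.24, adjusted p = 0.584).

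In the lamina and inner membrane list, 6 of 9 genes were above both controls (38.6% of all genes) and none below (12.1%), with a median of 0.43 that was 0.12 under median-ratio scaling. *Lbr*, the lamin B receptor, was at 79.6 and 60.5 TPM in the control libraries and 104 and 116 TPM in the KO-labelled libraries (log2 difference 0.65, adjusted p = 0.331 from limma). *Lemd3*, an inner membrane protein that binds lamins, was at 32.9 and 18.4 TPM in the control libraries and 49.0 and 48.9 TPM in the KO-labelled libraries (0.96, adjusted p = 0.340). *Emd*, which encodes emerin, overlapped between groups (26.5 and 50.7 TPM in the control libraries, 37.8 and 28.1 TPM in the KO-labelled libraries).

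CDK2 partners and inhibitors had 3 of 7 genes above both controls and 1 below, shares near the 38.6% and 12.1% of all genes. The gene below was *Ccna1*, the meiotic A-type cyclin that pairs with CDK2, at 48.2 and 4.83 TPM in the control libraries and 2.2 and 1.8 TPM in the KO-labelled libraries, a log2 difference of -2.50 (standard error 1.11, adjusted p = 0.387 from limma). Control 1 alone held a high level of it, as for *Sun3*. Of the cytoplasmic dynein genes, 6 of 11 were above both controls (38.6% of all genes) and 1, *Dync1i1*, below (12.1%), with a median close to that of all genes, 0.28. *Dynll2*, a light chain, was at 167 and 150 TPM in the control libraries and 404 and 375 TPM in the KO-labelled libraries, which gave the largest positive difference of the 41 genes, 1.29 (standard error 0.19, adjusted p = 0.310). *Pafah1b1*, the dynein regulator LIS1, was at 118 and 92.3 TPM in the control libraries and 166 and 157 TPM in the KO-labelled libraries (0.62, adjusted p = 0.327). The medians of the lists were 0.0073 for LINC partners, 0.69 for shelterin, 0.37 for CDK2 partners and 0.29 for dynein. The LINC list holds *Kash5*, at 0.38, with *Syne3*, *Syne4* and *Spag4*, whose groups overlapped, so its median does not describe *Kash5* alone. Under median-ratio scaling the medians were 0.37 for shelterin and 0.041 for CDK2 partners, while the LINC and dynein medians turned sign (-0.28 and -0.043).

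**Figure D3:**
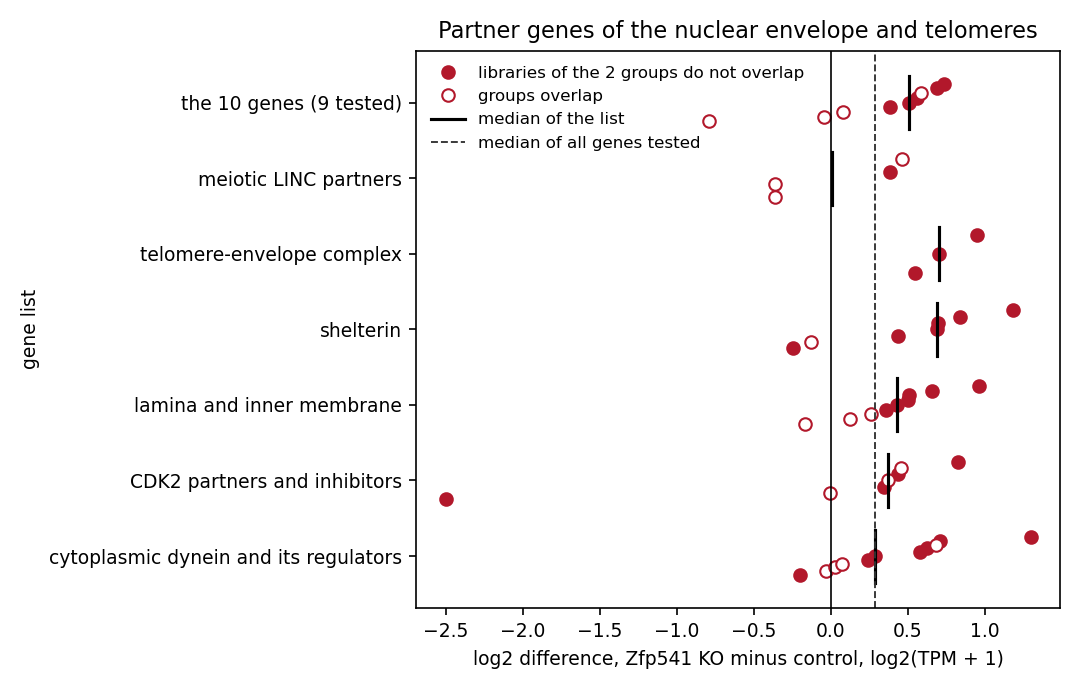
Difference between *Zfp541* KO and control in log2(TPM + 1) for each tested gene, by list; filled circles are genes whose libraries do not overlap between groups and the bar is the median of the list. The 3 genes of the telomere-envelope complex all lie to the right of the median of all genes tested (dashed, 0.28), and *Ccna1* lies far to the left at -2.50.

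The genes whose profile over the 4 libraries was most like that of *Sun1* were *Atg12*, *Smarcd1* and *Gtse1*, at a root mean square difference of 0.0055, 0.010 and 0.014 log2 units after centring. For *Spdya* they were *Pgrmc2* (0.0086), *Cdadc1* (0.016) and *Per2* (0.019). With 4 libraries such matches are common: 672 genes lay within 0.1 of *Sun1* and 428 within 0.1 of *Spdya*.

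Markers of the stages of prophase differed between the groups, although none passed the FDR. The 10 leptotene and zygotene markers summed to 2822 and 3352 TPM in the control libraries and 5355 and 5706 TPM in the KO-labelled libraries, with 9 of the 10 above both controls (38.6% of all genes), and none was at 0 in any library. Of the 9 pachytene markers, whose sums are given with *Sun3*, 4 were below both controls (12.1% of all genes) and 1 above. The axis gene *Sycp3* was at 1108 and 1263 TPM in the control libraries and 2093 and 2196 TPM in the KO-labelled libraries. *Sun1*, *Lmna* and *Lmnb1* were higher in the same libraries as these markers, and the part of the markers in their values was not tested. Spermatogonial markers (8 genes) summed to 324 and 980 TPM in the control libraries and 674 and 485 TPM in the KO-labelled libraries, and Sertoli cell markers (8 genes) to 164, 254, 278 and 224 TPM in the same order.

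**Figure D4:**
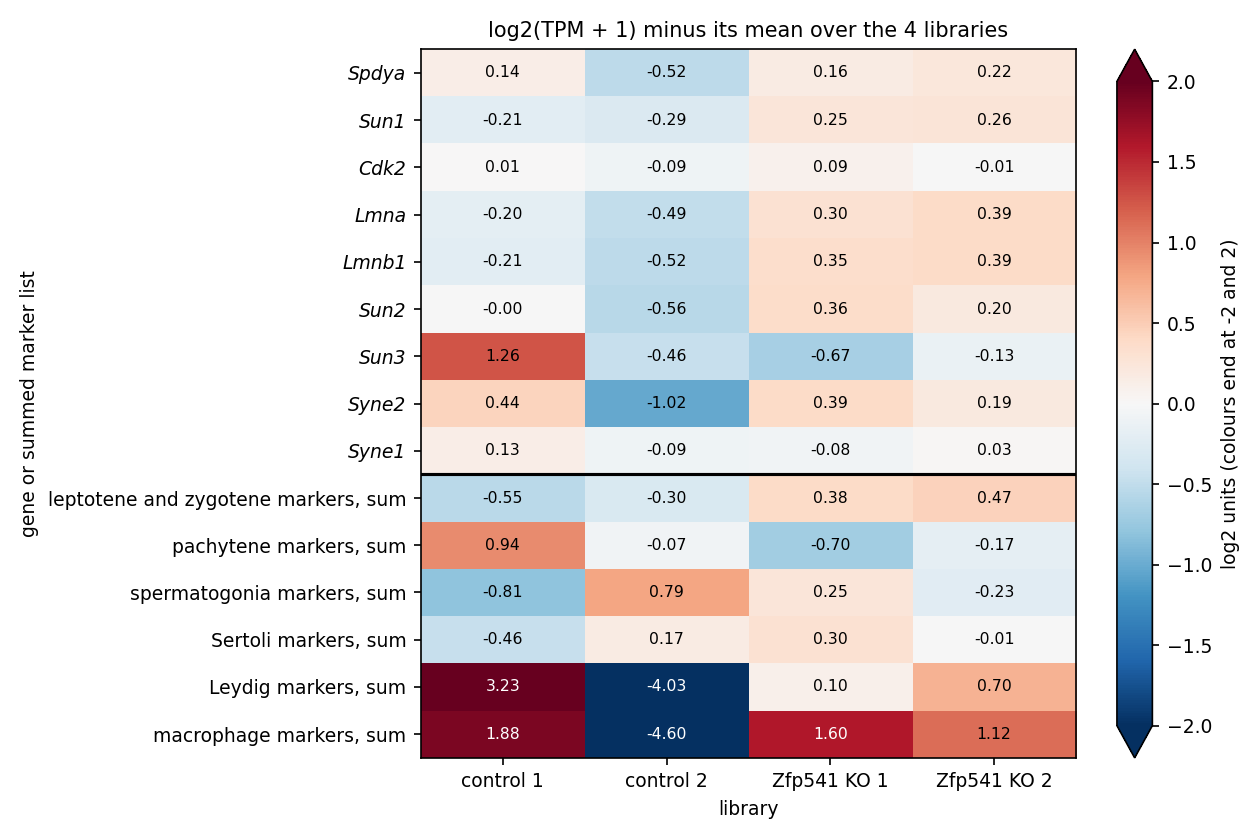
Each tested gene (above the line) and each summed marker list (below it) as log2(TPM + 1) minus its mean over the 4 libraries; rows are genes or lists, columns libraries, red is above and blue below the mean. *Sun1*, *Lmna* and *Lmnb1* are below their mean in both controls and above it in both KO-labelled libraries, as is the leptotene and zygotene sum, while *Sun3* stands out in control 1 (1.26) and *Syne2* in control 2 (-1.02).

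Genes annotated on the opposite strand overlap *Sun1*, *Sun2*, *Sun3*, *Syne1*, *Cdk2* and *Spdya*, and the sources used here do not say whether reads were assigned by strand, so reads of these pairs may not be told apart.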

How the data were processed

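RNA from GFP-positive cells was sequenced in 4 libraries, 2 control *Zfp541*+/− and 2 labelled *Zfp541* KO. Per the submitters' processing notes and the study's methods, the authors trimmed reads with Trim Galore 0.5.0 and cutadapt 1.16, aligned them to UCSC mm10 with STAR 2.6.0a and estimated expression with RSEM 1.3.1. They deposited TPM per gene, 1 library per file. TPM keeps no depth, so the counting precision of each library is unknown.

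Genes that averaged 1 TPM or more were compared as log2(TPM + 1) in R 4.3.3 with limma 3.58.1 (mean-variance trend, two-sided, Benjamini-Hochberg adjustment over all 14512 genes, FDR 0.05), by genotype without a block. The fit was tested on simulated data. Members were matched by symbol. The genes named were the 10 members, *Zfp541* and *Rec8*, genes of the partner and marker lists, and the 3 genes with the profile nearest to *Sun1* and to *Spdya*. The members and lists were chosen with earlier results of these data known. 4 partner genes were found under older symbols, which RefSeq lists as synonyms. Promoter windows came from RefSeq and gene models from GENCODE M21, both GRCm38. 27 rows that carry a date in place of a symbol were not used as genes to name. 13 alternatives were planned (pseudocount, filter, scaling, trend, replicate block, each library left out, FDR), and 1, the crossed block, was added after seeing the data. Estimated counts and other data types of the study were not used here.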

Additional observations from a re-analysis of the deposited data

How the results depend on the processing

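Only 2 libraries per group were compared, the controls differed widely, and sequencing depth is unknown, so a missed threshold does not show that levels were equal. No gene passed an FDR of 0.1 either. The correlation of the deviations of same-numbered libraries over genes was -0.156. With 2 libraries per group the crossed pairing must give the same value with the opposite sign, 0.156. This value therefore cannot show whether the replicate numbers pair the libraries. With the replicate block, 656 genes were higher at an unadjusted p under 0.05 (1549 without it), 0 members were, and no gene passed the FDR. Crossing the pairing, an alternative chosen after seeing the data, put 7 genes higher and 80 lower past the FDR, none of them a member.

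Median-ratio scaling gave 606 genes higher and 1097 lower at an unadjusted p under 0.05 (542 lower with TPM as deposited), 0 members higher, 4 members above both controls (22.6% of all genes) and 3 below (22.8%), a median of 0.17 over the members and of -0.015 over all genes. Quantile normalization gave 1010 and 1009 genes, 5 members above both controls (27.8% of all genes) and 1 below (19.4%), and a general median of 0.077. Without the variance trend 1 member was higher at an unadjusted p under 0.05 in limma, beside 1393 of the 14512 genes tested. The share of genes higher was 69.0% with TPM as deposited, 49.0% after median-ratio and 55.8% after quantile scaling. *Cdk2* turned to -0.26 by median-ratio and -0.0013 by quantile scaling. The median of the LINC partners turned to -0.061 with a pseudocount of 5, -0.37 with a mean of at least 5 TPM, -0.28 by median-ratio and -0.19 by quantile scaling, and that of dynein to -0.043 with median-ratio scaling.

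Leaving out 1 library at a time, 0 to 5610 genes were higher and 0 to 1875 lower past the FDR, 59 to 6592 were higher and 124 to 2798 lower at an unadjusted p under 0.05, 0 to 6 members passed the FDR, 0 to 6 were higher, 0 to 1 lower at an unadjusted p under 0.05, 5 to 8 had the KO-labelled libraries above the controls without overlap and 0 to 3 below. The median ranged from 0.052 to 0.71 over the members and 0.15 to 0.44 over all genes. Genes passed the FDR only in the fits without control 1 or without control 2, members and other genes alike. Those fits hold 1 control and take the spread from the libraries labelled KO. The counts of members that passed therefore do not set the members apart from other genes. Without control 1 the median was 0.71 over the members and 0.44 over all genes. Without control 2 it was 0.052 over the members and 0.15 over all genes. For the counts without overlap, the share of all genes in the same fits is not given here, so they are not compared. Signs turned for *Sun3* (-1.65 to 0.064 over the 4 libraries left out), *Syne1* (-0.16 to 0.063, and 0.0064 without KO 1), *Syne2* (-0.15 to 1.31) and the LINC median (-0.071 to 0.69). For *Sun1*, *Sun2*, *Spdya*, *Lmna* and *Lmnb1* both KO-labelled libraries lay above both controls. Leaving out a library or changing the pseudocount could therefore not turn their sign. The filter, trend and block fits left the estimate unchanged. Median-ratio and quantile scaling could turn it, and there these differences stayed positive, the smallest at 0.047 for *Spdya* under median-ratio scaling. The causes were not tested.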
